A study of Rattus norvegicus with 42 samples.

Results

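Of the 13776 genes measured in rat GH4C1 cells, 186 (1.35%) had a level in Neat1-deleted cells at ZT34, the last sampling time, that was well above their level at each of the first 4 times. ZT here gives hours after fresh medium. A gene was a member if its mean over the 3 knockout libraries at ZT34 was at least 1.8 times its mean at each of ZT10, ZT14, ZT18 and ZT22, and if that ZT34 mean was at least 5 CPM. CPM is the count of a gene divided by the total count of its library and scaled to a library of 1000000 counts, and 2 genes were left out of the counts and of the total. The members were therefore chosen on the measured knockout values at ZT34 and at the 4 early times, and their values at those times are given as a description with no test. The knockout libraries at ZT26 and ZT30 and all wild-type libraries played no part in the choice.

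GH4C1 is a rat pituitary line of the somatolactotroph kind, cells that secrete growth hormone and prolactin. The study compared wild-type GH4C1 cells (WT, no treatment) with GH4C1 cells of genotype Neat1 -/- made with CRISPR-Cas9 (KO). All cells, of either genotype, were kept in HamF10 medium with horse and fetal calf serum and were given fresh medium at time 0 to bring them into step with each other. RNA was then taken every 4 h at 7 times, ZT10, ZT14, ZT18, ZT22, ZT26, ZT30 and ZT34, with 3 libraries per genotype and time and 42 in all. The labels do not say whether the replicates were separate cultures, whether the KO cells came from 1 clone, or whether the WT cells had passed through a mock edit. P-values therefore measure the spread between these samples, which may be technical, and a difference between the genotypes cannot be told apart from a difference between the lines.

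Neat1 is a long non-coding RNA that stays in the nucleus and forms the scaffold of paraspeckles, nuclear bodies that gather RNA-binding proteins such as NONO and SFPQ and that can hold back some RNAs in the nucleus. In pituitary cells the number of paraspeckles is known to follow the circadian clock, the loop of transcription factors that gives cells a daily rhythm. A change of medium or serum is a usual way to align the clocks of cultured cells. The genes carry Ensembl identifiers, and the number that could be paired with a gene symbol from the RefSeq table at hand was 0. What the members do, how high Neat1 itself was and whether pituitary markers were present was thus not analysed here, and the labels for genotype and cell line were taken as they stand. Members are described below by their levels and courses, and 4 of them are named by identifier.

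The libraries held 45.9 to 60.5 M counts in KO (M, mega) and 34.5 to 68.8 M in WT. The 2 genes left out of the CPM held 17.6 to 21.2% of all counts in the KO libraries and 0.0308 to 0.335% in the WT libraries. Replicate 1 of WT ZT34 stood apart: 28.3% of all genes were at least 1.5 times their WT early mean there, against 1.66% and 3.25% in replicates 2 and 3. It was left out of the WT course below, which at ZT34 rests on 2 libraries. In a bulk sample, more cells with a gene on and more RNA per cell cannot be told apart.

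The members were mostly genes of moderate level. At KO ZT34 their means ran from 5.01 to 1969 CPM with a median of 30.3 CPM. Of the 186 members, 33 lay between 5 and 10 CPM, 58 between 10 and 30, 57 between 30 and 100, 27 between 100 and 300, and 11 above 300 CPM. The 5 most abundant held 30.4% of the summed level of all members and the 10 most abundant held 42.2%. At the early times the median member stood at 13.8 CPM in KO and 13.5 in WT, below the medians over all genes of 27.8 (KO) and 25.8 (WT).

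Most members lay near the lower limit of the rule. The ratio of the KO ZT34 mean to the highest of the 4 early means had a median of 2.11, with 10% of members below 1.84 and 10% above 3.03. The ratio was 1.8 to 2 in 71 members, 2 to 2.5 in 75, 2.5 to 3 in 20, 3 to 5 in 16 and above 5 in 4, with a highest value of 25.9. The members nearest to the limit on the inside had ratios of 1.801, 1.802, 1.802, 1.81 and 1.814, at 326.0, 34.3, 24.2, 5.73 and 89.3 CPM. The genes nearest on the outside had ratios of 1.799, 1.799, 1.799, 1.798 and 1.797, at 8.8, 16.0, 103.0, 17.6 and 21.1 CPM. The ratios thus ran on across the limit with no gap between the members and the genes outside. In 180 of the 186 members every KO ZT34 library lay above all 12 early KO libraries. The rule used these same libraries, so that count is a description, and the share of all genes is not given here.

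The same rule applied to the WT libraries, with ZT34 taken from replicates 2 and 3, found 18 genes, and 1 of them was also a member. That member went from an early mean of 35.2 CPM to 88.3 CPM at ZT34 in KO and from 35.6 to 68.1 CPM in WT. The reverse rule, for genes at least 1.8 times lower at KO ZT34 than at each early time, found 140 genes in KO and 2 in WT.

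Summed over the members, the level in KO was flat through ZT22 and higher at each of the last 3 times. The 12 early KO libraries had summed levels of 6641 to 7070 CPM. At KO ZT26 the 3 libraries had 7967, 6985 and 8182 CPM (7711 ± 638, SD, n = 3). At KO ZT30 they had 8845, 14032 and 13221 CPM (12033 ± 2790, SD, n = 3), and replicate 1 stood far below the other two. At KO ZT34 they had 15615, 16483 and 16102 CPM (16067 ± 435, SD, n = 3), above every earlier library. The spread between replicates was thus widest at ZT30, and narrow again at ZT34.

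The same genes in WT stayed within a narrow band. The 18 WT libraries from ZT10 to ZT30 had summed levels of 8130 to 9030 CPM, which lay above all 12 early KO libraries and below all 3 KO ZT34 libraries. At WT ZT34 replicates 2 and 3 had 9291 and 9607 CPM, and replicate 1, left out of the mean, had 8886 CPM. Replicates 2 and 3 of WT ZT34 lay above all the earlier WT libraries. The KO libraries set beside WT here were used to choose the members, so their order relative to WT is a description.

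**Figure D1:**
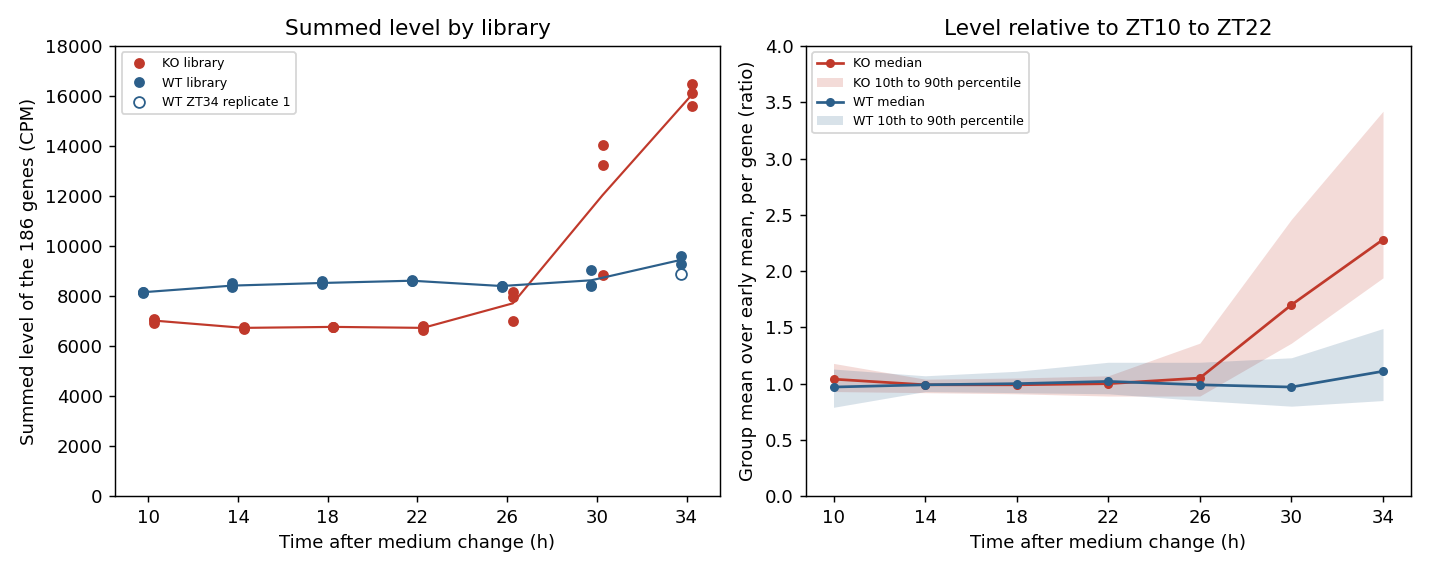
Left, summed level of the 186 members in CPM by hours after medium change, with 1 point per library and lines through the group means (the WT ZT34 mean leaves out replicate 1, drawn open). Right, median over the members of the group mean divided by the mean over ZT10 to ZT22 of the same genotype, with bands from the 10th to the 90th percentile of members. KO has a median ratio of 1.70 at ZT30 and 2.28 at ZT34, and WT reaches 1.11.

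The higher level at ZT30 was seen in most members and not only in the abundant ones. At ZT34 the rule required a higher level of every member, so the ZT34 ratios below are a description only. Relative to the mean over the 4 early times, the median member stood at 1.05 at KO ZT26, 1.70 at KO ZT30 and 2.28 at KO ZT34. From the 10th to the 90th percentile of members the ratio ran from 1.36 to 2.46 at ZT30 and from 1.94 to 3.42 at ZT34. By library the median ratio was 1.08, 1.0 and 1.10 in replicates 1, 2 and 3 of KO ZT26. It was 1.2, 2.07 and 1.86 at ZT30 and 2.26, 2.29 and 2.29 at ZT34. The median over all genes stayed between 0.97 and 1.05 in each of the 42 libraries, a value that division by the library total holds near 1.

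**Figure D2:**
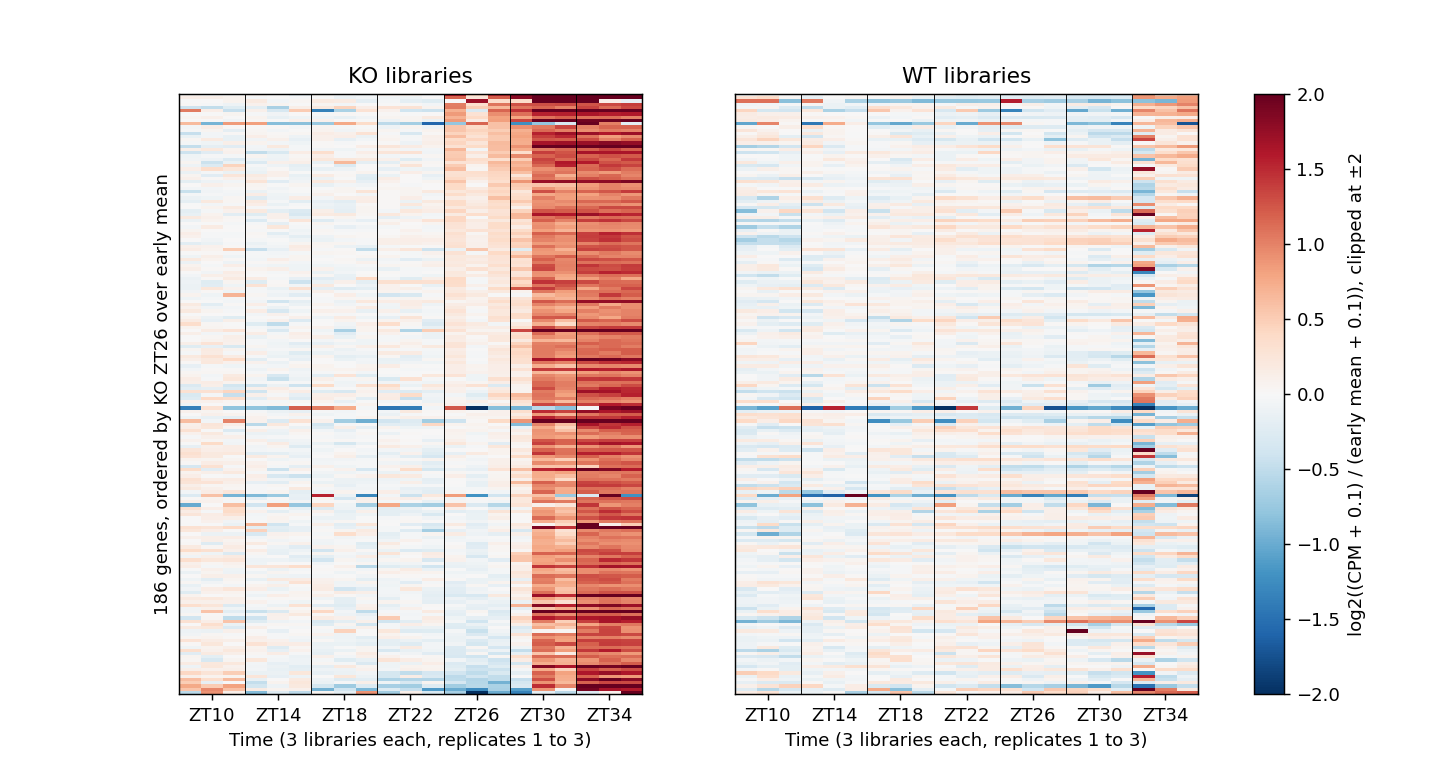
Each row is 1 of the 186 members, each column 1 of the 42 libraries, and the colour gives log2 of the CPM over the early mean of the same genotype, with 0.1 CPM added to both and colours clipped at ±2. Rows are ordered by the KO ZT26 ratio. Red fills the KO columns from ZT30 replicate 2 to ZT34 replicate 3, while replicate 1 of KO ZT30 is paler and WT stays near 0 apart from scattered colour in replicate 1 of ZT34.

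The step from ZT26 to ZT30 in KO rests on libraries that the choice of members did not use, and most members rose over it. In edgeR's quasi-likelihood test with Benjamini-Hochberg adjustment over all 13776 genes, 168 of the 186 members (90.3%) rose from KO ZT26 to KO ZT30 and 0 fell, where 11.1% of all genes rose and 14.1% fell. At an unadjusted p under 0.05, 171 members were higher and 0 lower, and DESeq2 called 170 higher and 0 lower. The shares of all genes for the unadjusted and DESeq2 counts are not given here. Over the members the median log2 change was 0.61 (25th to 75th percentile, 0.46 to 0.80), against -0.02 over all genes. As a ratio of group means, 184 members were higher at ZT30 than at ZT26, with a median of 1.58. The 18 members that did not pass had a median KO ZT34 level of 10.3 CPM, and 16 of them had a higher mean at ZT30.

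Those calls rest on a spread estimated over all 14 groups. Fitted on the 6 KO libraries of the 2 times alone, edgeR called 0 members, with 161 higher and 1 lower at an unadjusted p under 0.05. With replicate 1 left out of that smaller fit, an alternative chosen after seeing the data, 172 members rose. The shares of all genes in these smaller fits are not given here, so their counts are not set against a background.

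Replicate 1 of KO ZT30 was the lowest of its 3 libraries in 181 members, a count given without the share of all genes. Its median ratio to the KO ZT26 mean was 1.14, against 1.88 and 1.73 in replicates 2 and 3. It exceeded the highest KO ZT26 library in 119 members, against 30% of all genes. Replicates 2 and 3 each did so in 181, against 43.5% and 40.7% of all genes. Replicates 2 and 3 both lay above all 3 KO ZT26 libraries in 180 members (96.8%), against 33.7% of all genes, and below them in 0, against 24% of all genes. All 3 KO ZT30 libraries lay above all 3 KO ZT26 libraries in 117 members (62.9%), against 17.7% of all genes, and 0 members showed the reverse, against 12% of all genes. Relative to the early mean, a ratio of 1.5 or more was reached by 32 members in replicate 1 (1.97% of all genes), by 175 in replicate 2 (6.26%) and by 159 in replicate 3 (5.28%).

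The KO libraries at ZT26 also differed among themselves over the members. Replicate 2 was the lowest of the 3 in 121 members, replicate 1 in 37 and replicate 3 in 28. The shares of all genes are not given here, so these counts are not shown to be particular to the members. Of the rise seen at ZT34, the median member had reached 3.07% at ZT26 and 54.4% at ZT30. At ZT26, 66 members had reached at least 10% of it and 20 members at least 25%. From ZT30 to ZT34, 182 members had a higher mean, with a median ratio of 1.35. Against replicates 2 and 3 of ZT30 only, that count was 162 members and the median 1.18. The ZT34 values of these last 2 comparisons were used to choose the members and carry no test.

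Over the same step in WT no member passed the test. From WT ZT26 to WT ZT30 edgeR called 0 members higher, where 0.00726% of all genes were called, and 0 lower, where 0.029% were called. At an unadjusted p under 0.05, 6 members were higher and 7 lower, and DESeq2 called 0 higher and 1 lower, counts given without the shares of all genes. The median step was -0.01 on the log2 scale. The 3 WT ZT30 libraries lay above all 3 WT ZT26 libraries in 24 members (12.9%; 12.5% of all genes) and below them in 26 (14%; 14.6% of all genes), shares close to those of all genes.

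The difference between the genotypes in this step was tested itself. The change from ZT26 to ZT30 was larger in KO than in WT in 131 members (70.4%), against 6.97% of all genes, and smaller in 0, against 7.73% of all genes (edgeR, interaction of genotype and time). At an unadjusted p under 0.05 it was larger in 161 members and smaller in 1, and DESeq2 called 138 larger and 0 smaller. For these counts too the shares of all genes are not given here. The median difference was 0.66 on the log2 scale, against 0 over all genes. All 131 were among the 168 that rose in KO. This count moved with single libraries. It was 166 without KO ZT30 replicate 1, 78 without KO ZT30 replicate 2, 93 without KO ZT30 replicate 3, and 71 with WT ZT34 replicate 1 put back into the fit. Fitted on the 12 libraries of the 4 groups alone it was 31.

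**Figure D3:**
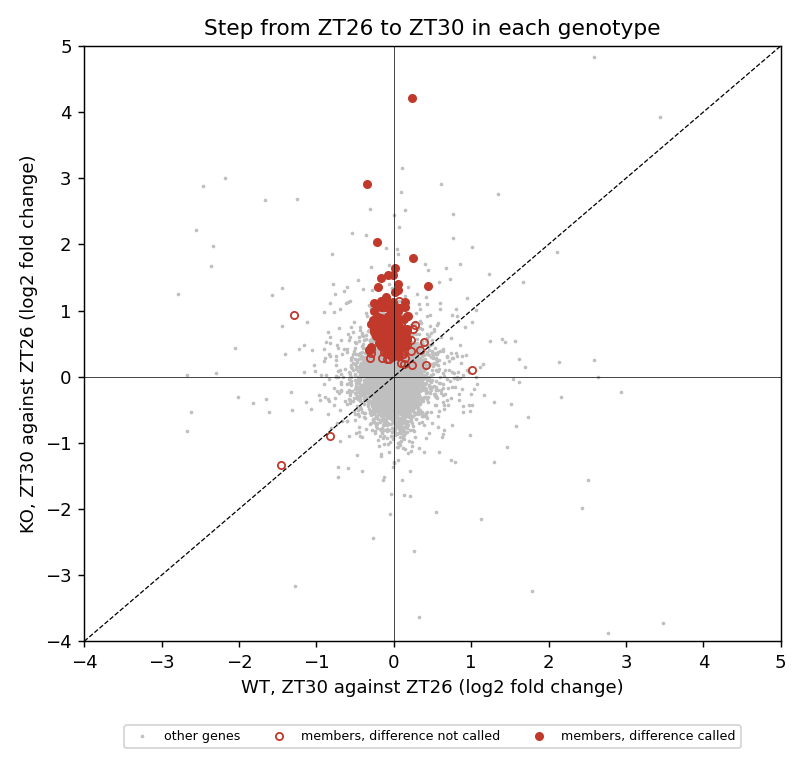
Log2 fold change from ZT26 to ZT30 in WT (horizontal) and in KO (vertical) for every gene, with the 186 members in red, filled for the 131 whose change differed between genotypes. The dashed line marks equal change. Most members lie above 0 in KO, around 0.61, and near 0 in WT.

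A pair of members had by far the largest ratios in the rule and were close to undetected before ZT30 in either genotype. ENSRNOG00000033697 had 0.0236 to 0.386 CPM in the 12 early KO libraries (median 0.119, from 1 to 17 counts). It had 0.0832, 0.147 and 0.217 CPM at KO ZT26, then 0.351, 4.48 and 3.67 CPM at KO ZT30, and 6.60, 7.72 and 6.25 CPM at KO ZT34 (6.86 ± 0.768, SD, n = 3). Replicate 1 of KO ZT30 lay within the early range, and the other two were far above it. In the 12 early WT libraries its level was 0 to 0.232 CPM (median 0.153), and the 2 libraries with 0 counts allow up to 3 counts, or 0.0682 and 0.0768 CPM. At WT ZT34 it was 0.162 and 0.290 CPM in replicates 2 and 3 and 0.205 CPM in replicate 1. No WT library came near the KO ZT34 level. The step from KO ZT26 to ZT30 was 4.22 on the log2 scale (SE 0.66, edgeR adjusted p = 1.79e-05), and it exceeded the WT step by 3.99 (SE 1.25, adjusted p = 0.0281). The latter call did not hold without replicate 2 or 3 of KO ZT30, replicate 1 of KO ZT26, replicate 3 of WT ZT30, or replicate 1 or 2 of WT ZT26 (adjusted p of 0.0557 to 0.0969), nor with WT ZT34 replicate 1 put back (0.0676). On the compared libraries alone neither call held (adjusted p = 0.0913 and 0.124). From the early times to WT ZT34 the change was 0.73 (SE 0.74, adjusted p = 0.493) and did not pass.

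ENSRNOG00000020630 had the second ratio, 17.36. Its 12 early KO libraries held 0.113 to 1.02 CPM (median 0.404, from 5 to 41 counts). At KO ZT26 it had 0.791, 0.342 and 1.11 CPM, at KO ZT30 1.38, 9.25 and 6.83 CPM, and at KO ZT34 11.4, 9.71 and 10.3 CPM (10.5 ± 0.846, SD, n = 3). Replicate 2 of KO ZT30 came close to the ZT34 level, while replicate 1 was just above the early range. In WT it had 0.111 to 0.41 CPM early (median 0.227), 0.072, 0.158 and 0.0793 CPM at ZT30, and 0.427 and 0.638 CPM in replicates 2 and 3 of ZT34. The KO step from ZT26 to ZT30 was 2.91 (SE 0.49, edgeR adjusted p = 4.06e-05) and exceeded the WT step by 3.26 (SE 1.01, adjusted p = 0.0259). The second call did not hold without replicate 2 or 3 of KO ZT30, replicate 2 of KO ZT26, replicate 1 or 3 of WT ZT30, or replicate 2 or 3 of WT ZT26 (adjusted p of 0.0523 to 0.109), nor with WT ZT34 replicate 1 put back (0.0607). On the compared libraries alone neither call held (adjusted p = 0.0913 and 0.116). The WT change at ZT34 of 1.09 (SE 0.54, adjusted p = 0.127) did not pass, and with replicate 1 put back it did, at 1.12 (adjusted p = 0.0487).

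The member with the third ratio, 6.54, was expressed at a higher level and was above its early mean in all 3 KO ZT26 libraries. From an early mean of 74.8 CPM in KO it had 168, 88.4 and 174 CPM at ZT26. It then had 262, 518 and 509 CPM at ZT30 and 522, 515 and 544 CPM at ZT34. Replicates 2 and 3 of KO ZT30 were at the ZT34 level, and replicate 2 of KO ZT26 was the lowest of its 3. In WT its early mean was 42.4 CPM, its ZT30 libraries had 33.8, 33.9 and 34.9 CPM, and its ZT34 libraries had 72.0 and 75.5 CPM in replicates 2 and 3 and 78.4 CPM in replicate 1. It rose from KO ZT26 to ZT30 by 1.53 on the log2 scale (SE 0.16, edgeR adjusted p = 7.31e-08), by 1.60 more than in WT (SE 0.23, adjusted p = 3.9e-05). It also rose at WT ZT34, by 0.84 (SE 0.14, adjusted p = 3.57e-05). On the KO ZT26 and ZT30 libraries alone its step had an adjusted p of 0.0913.

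The most abundant member had a ratio of 1.95. Its level went from an early mean of 981 CPM to 1180, 1680 and 1560 CPM at KO ZT30 and 1860, 2080 and 1960 CPM at KO ZT34. In WT it went from 937 CPM early to 1030 and 1050 CPM in replicates 2 and 3 of ZT34. Its KO step to ZT30 was 0.37 (edgeR adjusted p = 6.08e-05), its WT change at ZT34 was 0.18 (adjusted p = 0.0193), and the 2 genotypes differed in the ZT26 to ZT30 step by 0.37 (adjusted p = 0.00484). The WT change did not pass without replicate 2 (adjusted p = 0.165) or 3 (0.116) of WT ZT34, or with replicate 1 put back (0.07 on the log2 scale, adjusted p = 0.36), where the difference of the steps did not pass either (adjusted p = 0.0551). On the compared libraries alone neither the KO step (adjusted p = 0.113) nor the difference (0.104) passed.

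The second most abundant member, with a ratio of 3.01, was already up at ZT26. It had an early KO mean of 427 CPM, 772, 523 and 816 CPM at ZT26, 920, 1250 and 1250 CPM at ZT30, and 1320, 1270 and 1300 CPM at ZT34. In WT it had 352 CPM early, 336, 334 and 342 CPM at ZT30, and 572 and 598 CPM in replicates 2 and 3 of ZT34. It rose in both genotypes, by 0.65 from KO ZT26 to ZT30 (edgeR adjusted p = 4.51e-06) and by 0.76 from the early times to WT ZT34 (adjusted p = 9.33e-09). The ZT26 to ZT30 step was larger in KO than in WT by 0.64 (adjusted p = 0.00118). On the compared libraries alone neither the KO step (adjusted p = 0.0975) nor the difference (0.074) passed.

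The third most abundant member did not follow the common course. Its level was 261, 195 and 255 CPM at KO ZT26, 234, 275 and 275 CPM at KO ZT30, and only then 543, 680 and 500 CPM at KO ZT34. Its step from KO ZT26 to ZT30 was 0.10 (edgeR adjusted p = 0.858), and -0.03 without replicate 2 of KO ZT26. In WT its ZT30 libraries had 793, 159 and 163 CPM, so that 1 WT library exceeded every KO ZT34 library. The 2 genotypes did not pass the test of a difference in this step (-0.92 on the log2 scale, adjusted p = 0.165). Without WT ZT30 replicate 1 that difference was 0.29 (adjusted p = 0.416), and without replicate 2 or 3 it was -1.27 or -1.26 (adjusted p = 0.0353 and 0.036), so a single WT library set its sign.

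**Figure D4:**
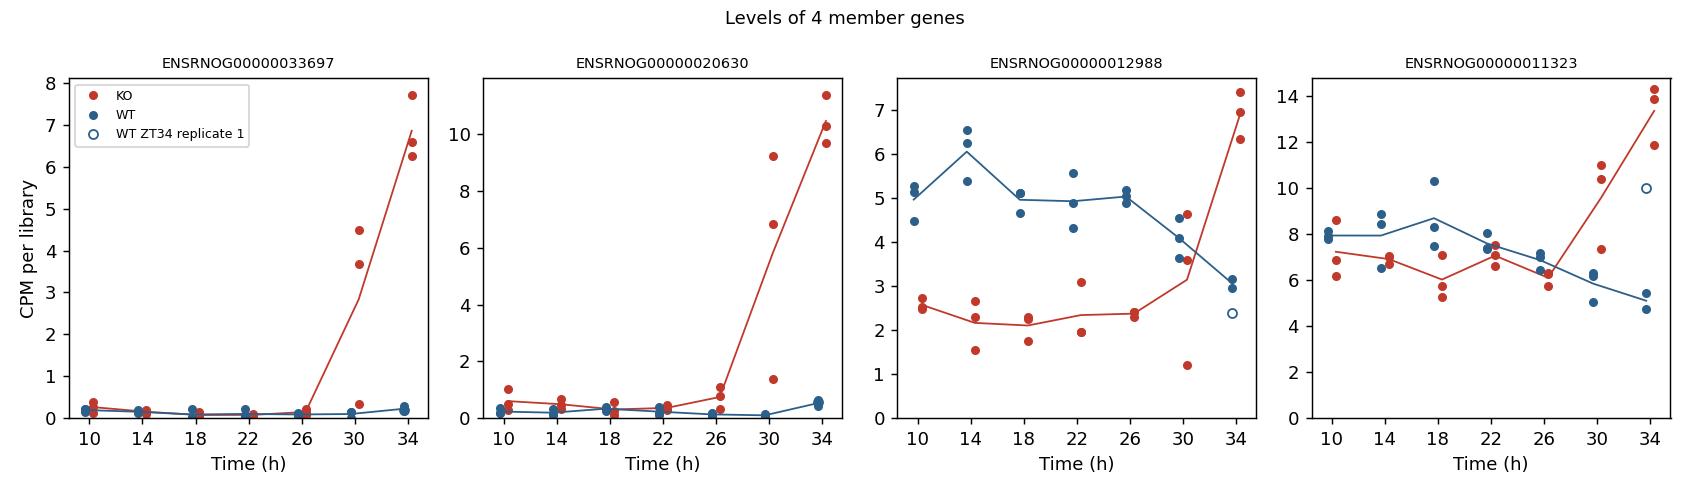
CPM per library by hours after medium change for the 4 members named by identifier, with lines through the group means. Replicate 1 of WT ZT34 is drawn open and left out of the mean. The 2 genes on the left stay near 0 outside KO ZT30 and ZT34. The 2 on the right are higher at KO ZT34 and lower at WT ZT34 than at their own early times, except replicate 1 of WT ZT34 for ENSRNOG00000011323.

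The WT libraries at ZT34 gave the second independent comparison, with the same early times as the rule. Against the mean of WT ZT10 to ZT22, 61 members (32.8%) rose at WT ZT34, where 14.8% of all genes rose, and 9 members (4.84%) fell, where 14.5% of all genes fell (edgeR). The median log2 fold change was 0.18 (25th to 75th percentile, -0.01 to 0.39), against 0.01 over all genes. The contrast uses the mean over the early times, so a steady WT rise from ZT10 can be called with no late step. A called member had WT means of 1.67 CPM at ZT10, 3.33 at ZT22, 4.35 at ZT30 and 4.03 at ZT34. The second most abundant member, also called, had 323 CPM at ZT22, 337 at ZT30 and 585 at ZT34. How many of the 61 followed either course was not counted. Both WT ZT34 libraries lay above all 12 early WT libraries in 51 members (27.4%; 7.39% of all genes) and below them in 13 (6.99%; 11.4% of all genes). A ratio of 1.5 or more to the early mean was found for 18 members at WT ZT34 (1.8% of all genes), 6 at WT ZT30 (0.726%) and 2 at WT ZT26 (0.515%). In KO it was found for 9 members at ZT26 (0.719%) and 139 at ZT30 (3.48%). The number of members that rose in WT fell to 36 without replicate 2 of WT ZT34, and was 42 without replicate 3. With replicate 1 put back it was 64, of which 40 were among the 61. The shares of all genes in these alternative fits are not given here, so their counts are not set against a background.

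The largest fitted rise in WT was in a low member. Its WT mean was higher at each time than at the one before, with 0.97 CPM at ZT10, 2.57 at ZT22, 3.06 at ZT26 and 3.66 at ZT30. It had an early WT mean of 1.82 CPM, then 3.49 and 4.73 CPM in replicates 2 and 3 of WT ZT34 and 13 CPM in replicate 1. The member was picked as the largest value of the comparison that follows. Its log2 fold change without replicate 1 was 1.28 (SE 0.16, edgeR adjusted p = 2.41e-07). At KO ZT34 it had 5.13, 6.25 and 5.86 CPM, so that its WT replicate 1 exceeded all KO libraries of that time. The single member that also met the rule in WT had a log2 fold change of 0.96 there. These same WT libraries chose it, so that value is a description with no test.

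The 9 members that fell at WT ZT34 were, by the rule, higher at ZT34 in KO. The pair with the lowest WT fold changes among them are named here, chosen after their values were seen. ENSRNOG00000012988 had 1.54 to 3.1 CPM in the early KO libraries (median 2.31) and 4.32 to 6.54 CPM in the early WT libraries (median 5.13), so the early genotypes did not overlap. At KO ZT34 it had 7.41, 6.34 and 6.95 CPM (6.90 ± 0.534, SD, n = 3), and at WT ZT34 it had 2.97 and 3.16 CPM in replicates 2 and 3 and 2.38 CPM in replicate 1. The order of the genotypes at ZT34 was the reverse of that at the early times. The rise in KO and the fall in WT chose this member, so that reversal is a description. It fell in WT by 0.74 on the log2 scale (SE 0.23, edgeR adjusted p = 0.0139), a call lost without replicate 2 (adjusted p = 0.128) or replicate 3 (0.0852) of WT ZT34. Its KO ZT30 libraries were 1.21, 4.64 and 3.59 CPM, on both sides of the ZT26 values of 2.41, 2.42 and 2.30 CPM, and that step of 0.36 did not pass (adjusted p = 0.294). Without replicate 1 of KO ZT30 it was 0.73 and passed (adjusted p = 0.00166), and without replicate 2 it was -0.02 (adjusted p = 0.97).

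ENSRNOG00000011323 started from similar levels in both genotypes, 5.26 to 8.64 CPM in the early KO libraries (median 6.95) and 6.54 to 10.3 CPM in the early WT libraries (median 7.98). It had 7.37, 10.4 and 11 CPM at KO ZT30 and 11.9, 13.9 and 14.3 CPM at KO ZT34. At WT ZT34 it had 5.46 and 4.76 CPM in replicates 2 and 3, below all 12 early WT libraries, but 10 CPM in replicate 1. It rose from KO ZT26 to ZT30 by 0.61 (SE 0.14, edgeR adjusted p = 0.00128) and by 0.84 more than in WT (SE 0.19, adjusted p = 0.00394). It fell at WT ZT34 by 0.62 (SE 0.13, adjusted p = 0.000666). With replicate 1 in the fit the WT change was -0.28 (adjusted p = 0.107) and no longer passed, nor did the difference of the steps (adjusted p = 0.0511). On the KO ZT26 and ZT30 libraries alone the step had an adjusted p of 0.0935.

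The members that rose in WT at ZT34 had a higher median in KO at ZT26 than the others, a comparison given without a test. The 61 members that rose in WT had a median ratio of KO ZT26 to the KO early mean of 1.14 (25th to 75th percentile, 1.0 to 1.25), and the other 125 had 1.03 (0.95 to 1.13). Over all 186 members, log2 ratios at KO ZT26 and at WT ZT34 had a Pearson r of 0.24 and a Spearman rho of 0.34. Over the 131 members with at least 5 CPM in both groups they were 0.43 and 0.40. Over 11116 other genes with a KO mean of at least 5 CPM at some time they were 0.08 and 0.16. All 186 members meet that looser filter, so 0.08 and 0.16 are to be set beside 0.24 and 0.34, not beside 0.43 and 0.40. These are correlations across genes, which share their libraries and are not independent replicates, and they are given as a description.

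The 9 members at least 1.5 times their early mean at KO ZT26 were examined by library. Their ratios at ZT26 were 1.56 to 2.39, their KO ZT34 levels 5.4 to 1298 CPM, and 6 of the 9 were among the 61 that rose in WT. The share that rose in WT among all genes with such a KO ZT26 ratio is not given here. The 6 are thus not set against a background. The median ratio of the 9 was 1.81, 1.26 and 1.91 in the 3 KO ZT26 libraries, 2.41, 4.16 and 4.42 at KO ZT30, and 3.81, 2.97 and 3.05 at KO ZT34. In WT it was 0.87, 0.80 and 0.82 at ZT30, and 1.59 and 1.70 in replicates 2 and 3 of ZT34. The KO ZT26 values chose these 9 and are a description. The WT medians were below 1 at ZT30 and above 1 at ZT34, although the member that also met the rule in WT was above its early mean at WT ZT30 too.

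**Figure D5:**
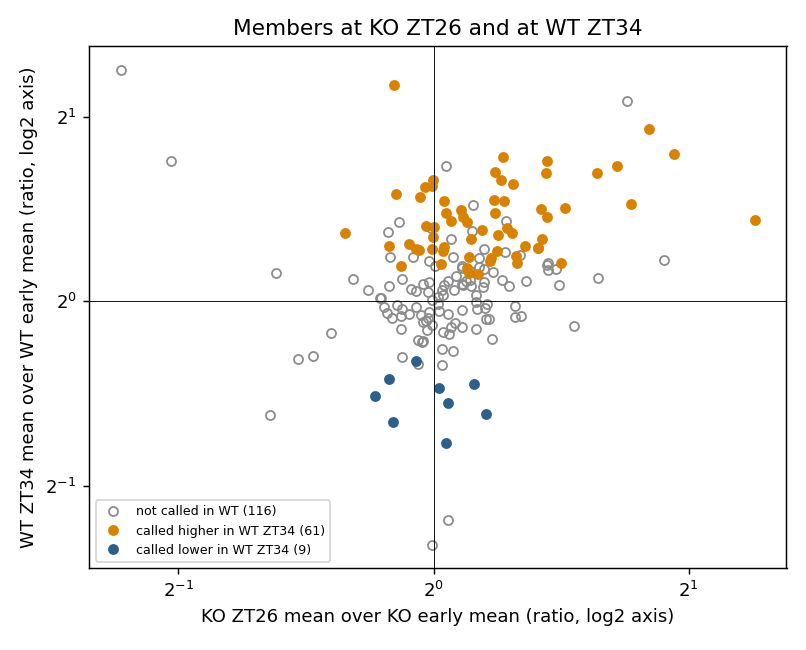
Ratio of the KO ZT26 mean to the KO early mean (horizontal) and of the WT ZT34 mean to the WT early mean (vertical) for the 186 members, both on log2 axes. Filled points are the 61 members that rose (orange) and the 9 that fell (blue) at WT ZT34, where WT ZT34 is the mean of replicates 2 and 3. The orange points reach further to the right than the open ones, with a median of 1.14 on the horizontal axis.

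Relative to WT, the median member was slightly lower in KO at the early times and at ZT26 and higher at ZT30 and ZT34. The log2 ratio of KO to WT group means had a median of -0.19 at the early times, -0.09 at ZT26, 0.54 at ZT30 and 0.92 at ZT34. It was above 0 in 75, 88, 138 and 161 members at these times, counts given without the shares of all genes. The KO values at the early times and at ZT34 chose the members, so of these only ZT26 and ZT30 are free of the rule. In edgeR's test at ZT26, 61 members were higher in KO than in WT, where 38.3% of all genes were, and 79 were lower, where 38.5% of all genes were. The 61 (32.8%) and 79 (42.5%) are near those background shares. At ZT30, 117 members (62.9%) were higher, where 39.6% of all genes were, and 30 (16.1%) were lower, where 38.8% were, with a median log2 fold change of 0.50.

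The calls at the 2 times can be set side by side, beside the same shares over all genes and without a test. Of the 79 members lower in KO at ZT26, 17 were higher at ZT30, 30 were lower and 32 were not called. Among all genes lower at ZT26, 1.04% were higher at ZT30, 86.9% were lower and 12.1% were not called. Of the 46 members not called at ZT26, 39 were higher at ZT30 and 0 were lower, against 21.2% and 21.7% of all such genes. All 61 members that were higher at ZT26 were also higher at ZT30, as were 89.7% of all genes higher at ZT26. Averaged over ZT26 and ZT30, 92 members were higher in KO and 55 lower, where 41.9% of all genes were called in each direction.

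The genes of the reverse rule, chosen on the same KO libraries, were tested in the same comparisons. Of these 140 genes, 129 fell from KO ZT26 to ZT30, where 14.1% of all genes fell, with a median log2 fold change of -0.59. The step was lower than in WT in 98 of them, where it was lower in 7.73% of all genes. At WT ZT34, 35 of them fell and 19 rose, where 14.5% of all genes fell and 14.8% rose, with a median of -0.08.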

How the data were processed

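The authors deposited a table of whole-number read counts per gene for each genotype, with no normalization. The program was featureCounts, per the submitters' processing notes. The aligner, genome build, annotation, strand setting and gene filter are not given in the sources used here, so genes that overlap or share reads with a near-identical copy are uncertain. Libraries were strand-specific paired reads of total RNA, per the labels' protocols. Total counts were 34.5 to 68.8 M (mega) per library, and the lowest member had a mean of 35.6 counts. Values at such counts are less precise than those of abundant members. Replicate pairs were compared by chi-square on genes of 50 counts or more, and its lowest value per degree of freedom over 42 pairs was 5.48, so each library was counted as 1 replicate.

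CPM was computed without the 2 genes that the rule names. Tests used edgeR 4.0.16 in R 4.3.3 (TMM scaling, quasi-likelihood F test, Benjamini-Hochberg over 13776 genes, adjusted p under 0.05). The model had a mean for each of the 14 groups and was fitted to 41 libraries, without WT ZT34 replicate 1. The filter filterByExpr removed no gene. DESeq2 1.42.0, other scalings, other sets of libraries and a replicate block were alternatives. The members, lists and tests were chosen with earlier results of these data known. Same-numbered replicates were checked for pairing: of 14 correlations of their deviations from group means, 2 exceeded 0.1, so the numbers were not used to pair samples.

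Genes were to be named as the highest ratios in the rule, the highest levels, the values next to the limit, the extremes of the WT and genotype changes, and the members of lists. With 0 identifiers matched to a symbol, 4 identifiers are printed, and lists, cell type markers and promoter motifs were not analysed here. The procedure was tested on simulated counts with 200 of 13776 genes changed. For a log2 change of 1, 88% were recovered with 6 false calls for KO ZT30 against ZT26, and 80.5% with 8 for the difference between genotypes. For a log2 change of 0.5, 73.5% were recovered with 6 for WT ZT34 against the early times. The simulated counts had the same mean at all times of a genotype, apart from the changed genes, and a spread estimated over all groups. No simulated library was shifted in many genes together, as KO ZT30 replicate 1 was. The simulation therefore cannot show how the calls fare with such a library.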

Additional observations from a re-analysis of the deposited data

Results flagged for a closer look

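The effect of the step from ZT26 to ZT30 differed between the genotypes in 131 members (70.4%), by an interaction test in edgeR at an adjusted p under 0.05. In all 131 the step was larger in KO, as it was in 6.97% of all genes, and it was smaller in 7.73% of all genes. The count was 71 with WT ZT34 replicate 1 put back, and lower still on the compared libraries alone, as given above. Of the 4 members named by identifier, the difference was called for ENSRNOG00000033697 (3.99 on the log2 scale), for ENSRNOG00000020630 (3.26) and for ENSRNOG00000011323 (0.84). It was also called for the member with the third ratio (1.60), the most abundant member (0.37) and the second most abundant (0.64). For ENSRNOG00000033697 and ENSRNOG00000020630 the call was lost when single libraries were left out. With WT ZT34 replicate 1 put back it was lost for ENSRNOG00000011323 (adjusted p = 0.0511), the most abundant member (0.0551) and both of those genes. On the compared libraries alone it was lost for both of those genes, the most abundant member (0.104) and the second most abundant (0.074).

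The WT ZT34 library left out of the WT course held 46 members at or above 1.5 times their WT early mean, against 18 and 25 in replicates 2 and 3. Over all genes the shares were 28.3%, 1.66% and 3.25%. Compared with the mean of replicates 2 and 3, 33 members were at least 1.5-fold higher in that library and 38 at least 1.5-fold lower, together 38.2% of the members, against 49.1% of all genes. Its part in the WT values at ZT34 was not tested beyond the fits with and without it.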

How the results depend on the processing

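Of 672 alternative values for 38 results, 613 kept their direction and side of the threshold, or, for counts, stayed within 1.5 times. Of 122 counts, 114 stayed within 1.5 times. These totals include the setting with no filter on low counts, which could not differ because the filter removed no gene. Of 550 values for single members, 39 lost their call, 9 gained one and 3 reversed. The 3 main values were not called: the KO ZT26 to ZT30 step of ENSRNOG00000012988 (0.73 without KO ZT30 replicate 1, -0.02 without replicate 2), that of the third most abundant member (0.17 without KO ZT26 replicate 1, -0.03 without replicate 2) and its difference between genotypes (0.29 without WT ZT30 replicate 1, -1.27 without replicate 2). With only the libraries compared, 0 members rose from KO ZT26 to ZT30 and 31 differed between genotypes in that step; the cause was not tested. Without KO ZT30 replicate 1 in those smaller fits, added after seeing the data, the counts were 172 and 163. Shares of all genes under the alternatives are not given here. With all 42 libraries the difference was called for 71 members; the cause was not tested. With 1 library left out at a time, the members called higher numbered 136 to 175 (KO ZT30 against ZT26), 36 to 65 (WT ZT34 against early), 0 to 0 (WT ZT30 against ZT26), 54 to 60 (KO against WT at ZT26), 98 to 134 (at ZT30), 87 to 100 (both times) and 78 to 166 (difference of the steps), and 182 to 192 genes met the rule. A lone WT ZT34 library is assumed to vary like the other groups. A fold of 1.5, 2 or 3 in the rule gave 470, 115 or 20 genes. A minimum of 1 or 10 CPM gave 260 or 153, and CPM with TMM scaling gave 144. With a replicate block the counts were 167 (KO ZT30 against ZT26), 57 (WT ZT34 against early) and 0 (WT ZT30 against ZT26). They were 61 (KO against WT at ZT26), 116 (at ZT30), 91 (both times) and 131 (difference of the steps). The replicate numbers are not shown to pair the samples (correlations of -0.16 to 0.20). Alternatives on gene lists and motifs were not run.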
